A study of Mus musculus with 12 samples.

Results

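Bmp2, Bmp4, Gdf10, Bmpr1a, Bmpr2 and Acvr1 encode 3 ligands and 3 receptors of the bone morphogenetic protein (BMP) branch of the TGFb superfamily. They were taken by gene symbol and are 6 of the 15720 gene identifiers kept from an RNA sequencing table of mouse hepatic stellate cells. All 6 had a row, and all 6 passed the filter on low values (a mean of at least 0.5 FPKM over the 12 libraries). BMP ligands are secreted dimers that bring together type I receptors, such as Bmpr1a and Acvr1, and type II receptors, such as Bmpr2. The type I kinase then phosphorylates Smad1, Smad5 or Smad9, which enter the nucleus with Smad4 and switch on genes such as those of the Id family. TGFb uses other receptors of the same family and Smad2 and Smad3, shares Smad4, and in the liver drives stellate cells to become matrix-producing myofibroblasts.

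The cells were EMS404, an immortalised stellate cell line from a C57Bl6 mouse. All groups carried the same background, SV40 immortalisation and human TLR4, and all came from this 1 line. The 4 groups of 3 libraries were Bmal1 siRNA with TGFb, Bmal1 siRNA with vehicle, scrambled siRNA with TGFb and scrambled siRNA with vehicle. siRNA was given 48 h before TGFb (10 ng/mL), and RNA was taken after a further 24 h, the only time sampled. Bmal1 is the clock transcription factor encoded by Arntl. No label says that the triplicates came from separate cultures; p-values therefore speak only of the spread among these libraries, which may be technical.

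Levels are fragments per kilobase, scaled to library size (FPKM), a unit that corrects for transcript length, so that levels of different genes can be set side by side. FPKM totals were 445472 to 483957 per library. The depth is unknown: steps between low values gave a rough 17000000 to 29600000 fragments per library at an assumed fragment length of 150 bases. Arntl, the siRNA target, stood at 4.35 ± 0.603 FPKM with Bmal1 siRNA and TGFb, against 10.7 ± 0.185 FPKM with scrambled siRNA and TGFb (SD, n = 3 each). Under vehicle it stood at 3.79 ± 0.171 FPKM with Bmal1 siRNA and at 5.18 ± 0.260 FPKM with scrambled siRNA (log2 change -0.37, limma adjusted p = 0.049), a call that ended in 13 of 25 alternative fits, among them each fit without 1 of the 6 vehicle libraries. On the first principal component of all genes, which held 71% of the variance, Bmal1 siRNA TGFb replicate 2 lay at -5.13. The other Bmal1 siRNA TGFb libraries lay at 12.99 and 8.40, the scrambled TGFb libraries at 27.16 to 29.85 and the 6 vehicle libraries at -17.76 to -15.42. Calls of the 6 BMP genes that turned on this replicate are given below with and without it. Of 10 stellate cell markers 8 had rows (Lrat and Reln were not analysed here), with a summed level of at least 3998.65 FPKM in each library. Col1a1 (at least 2716.13 FPKM) and Vim (at least 961.72 FPKM) carried most of this sum, and Des was at most 1.23 FPKM. The 4 of 7 leukocyte markers and 5 of 6 endothelial markers with rows each summed to at most 0.29 FPKM.

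The first comparison asked how TGFb changed the BMP genes in cells given scrambled siRNA. All 3 ligand genes were lower with TGFb, to 28.1% of the vehicle mean for Bmp2, 29.8% for Bmp4 and 2.26% for Gdf10. The receptor genes Bmpr2 and Acvr1 were higher, at 156% and 159% of vehicle, and Bmpr1a was lower by a small margin. All 6 genes were thus called by limma (adjusted p under 0.05 over all 11208 genes tested), 2 higher and 4 lower. In this comparison 45.5% of all tested genes were called, 16.4% higher and 29.1% lower. The split of all calls depended on scaling, with 36.1% of them higher on the deposited scale and 49.8% after median-of-ratios scaling. The direction of each of the 6 genes was the same under every scaling, but the Bmpr1a call was lost under all 3 scalings tried. Its limma adjusted p was 0.214 with median-of-ratios scaling, 0.246 with libraries scaled to equal totals and 0.15 after quantile normalization.

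**Figure D1:**
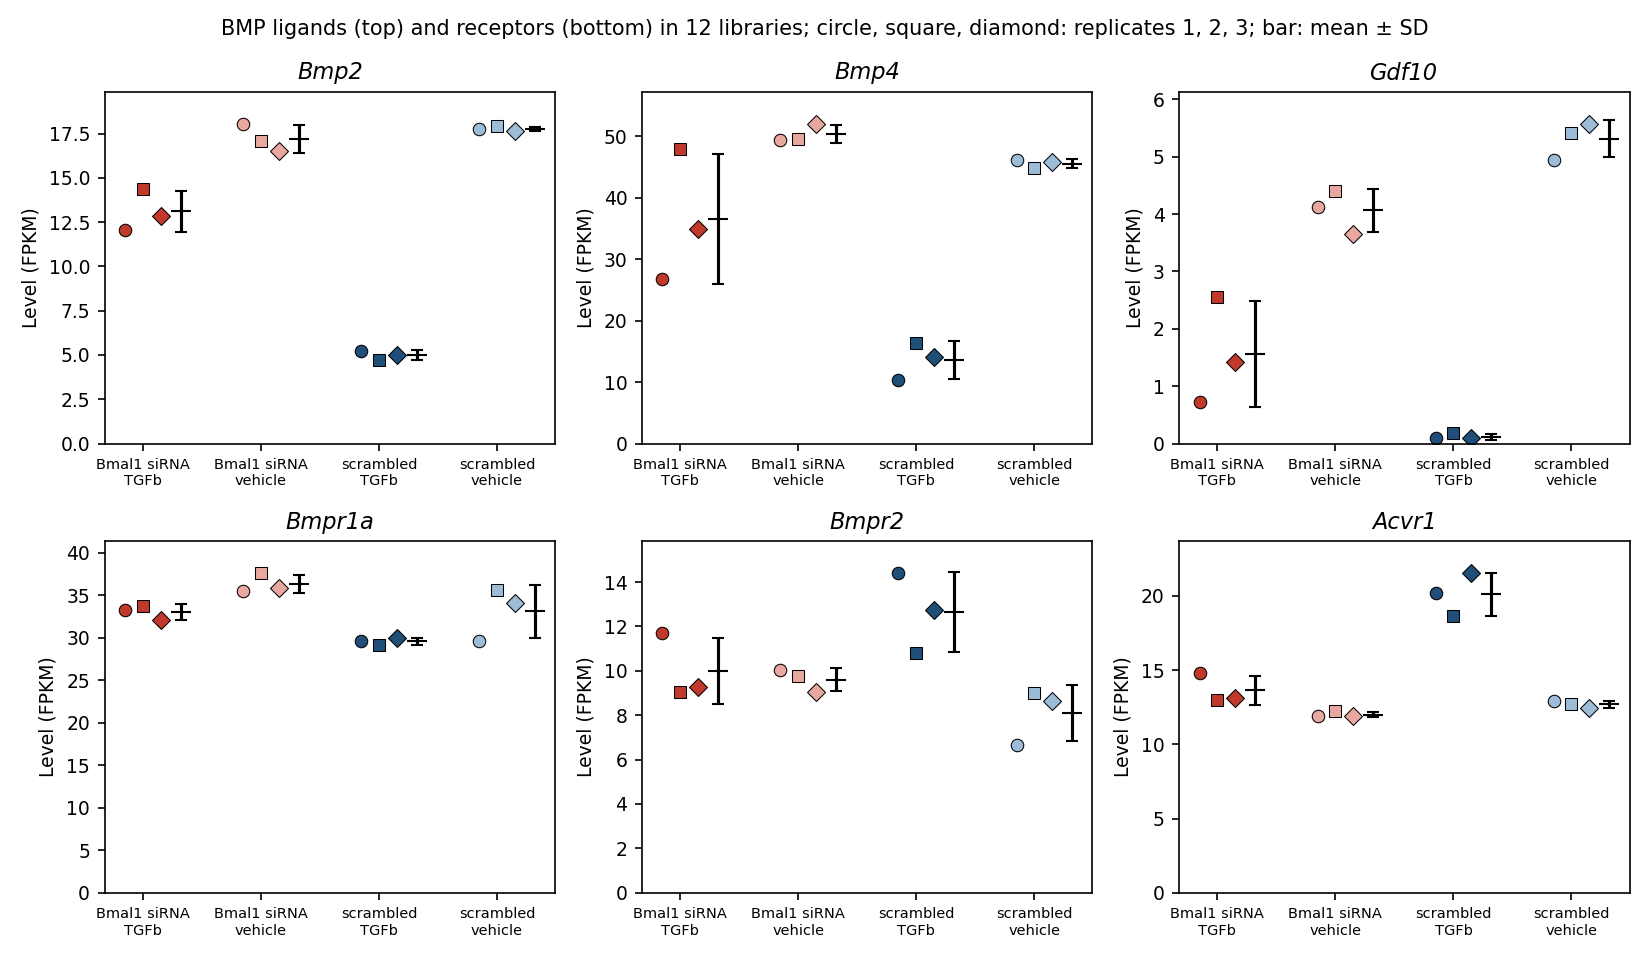
Level in FPKM (vertical axes, from 0) of each BMP ligand (top row) and receptor (bottom row) in the 12 libraries, by group. Circles, squares and diamonds are replicates 1, 2 and 3 and the bars are the mean ± SD. The scrambled TGFb libraries are lowest for Bmp2, Bmp4 and Gdf10, and the Bmal1 siRNA TGFb libraries lie above them and, apart from Bmp4 in replicate 2, below both vehicle groups.

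Bmp2 (chromosome 2, 133552159 to 133562885, plus strand, mm10) encodes a classical osteogenic BMP that binds Bmpr1a with high affinity. With Bmal1 siRNA it measured 12.1, 14.4 and 12.8 FPKM in TGFb replicates 1 to 3, against 18.0, 17.1 and 16.5 FPKM in vehicle replicates 1 to 3. In scrambled cells it measured 5.25, 4.70 and 5.01 FPKM under TGFb, against 17.7, 17.9 and 17.7 FPKM under vehicle. The vehicle groups overlapped each other, whereas the TGFb groups lay below them and apart from each other, lowest with scrambled siRNA. After Bmal1 siRNA, TGFb changed it by a log2 of -0.37 (SE 0.064, limma adjusted p = 0.00157), to 76.1% of vehicle. After scrambled siRNA the log2 change was -1.65 (SE 0.064, limma adjusted p = 3.1e-09).

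Bmp4 (chromosome 14, 46383520 to 46390669, minus strand, sharing 89 exon bases with Gm15217) encodes the close relative of Bmp2 and was the most abundant of the 3 ligands in each library. After Bmal1 siRNA it measured 26.8, 47.9 and 35.0 FPKM under TGFb, against 49.4, 49.6 and 52.0 FPKM under vehicle. After scrambled siRNA it measured 10.3, 16.3 and 14.2 FPKM under TGFb, against 46.1, 44.8 and 45.9 FPKM under vehicle. The scrambled TGFb libraries were lowest, and the Bmal1 siRNA TGFb libraries lay below their own vehicle group. Replicate 2 with Bmal1 siRNA and TGFb lay within 2 FPKM of the lowest of that group and above all scrambled vehicle libraries. With Bmal1 siRNA the log2 change of -0.49 was not called (limma adjusted p = 0.0621), and without Bmal1 siRNA TGFb replicate 2 it was -0.70 (adjusted p = 0.0023). Without replicate 1 of the same group it was -0.29 (adjusted p = 0.247). It was also called without scrambled TGFb replicate 1 (0.0315) or 2 (0.0488), where its size was the same. In all, 8 of 25 alternative fits called it, among them libraries scaled to equal totals (0.0407), a pseudocount of 5 (0.0498) and array weights (0.00084). The TGFb change after scrambled siRNA was -1.70 (SE 0.17, limma adjusted p = 3.91e-06).

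Gdf10 (chromosome 14, 33923587 to 33937983, plus strand), a divergent member of the family related to Bmp3, was the least abundant ligand and the one that TGFb lowered most. Bmal1 siRNA libraries held 0.72, 2.55 and 1.42 FPKM under TGFb, against 4.12, 4.41 and 3.66 FPKM under vehicle. The scrambled libraries held 0.09, 0.18 and 0.09 FPKM under TGFb, against 4.95, 5.42 and 5.57 FPKM under vehicle. The 4 groups did not overlap, and the scrambled TGFb libraries were close to 0, where a value rests on few fragments. On the log2 scale TGFb changed it by -1.04 after Bmal1 siRNA (adjusted p = 0.00177) and by -2.49 after scrambled siRNA (SE 0.183, limma adjusted p = 2.69e-07). Being a low gene, its size depended on the pseudocount: with scrambled siRNA the change was -4.64 at a pseudocount of 0.1 and -1.01 at 5, both called. Without Bmal1 siRNA TGFb replicate 2 the change of Gdf10 after Bmal1 siRNA was -1.31 (limma adjusted p = 5.63e-06). In these bulk samples fewer cells that express a ligand and less transcript per cell cannot be told apart.

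Mesothelial markers moved with the ligands under TGFb. The summed level of all 5 (Msln, Upk3b, Wt1, Gpm6a and Lrrn4, none at 0) ran from 86.19 to 166.28 FPKM with Bmal1 siRNA and TGFb, against 298.87 to 327.64 FPKM with that siRNA and vehicle. With scrambled siRNA it ran from 84.73 to 117.19 FPKM under TGFb, against 258 to 309.6 FPKM under vehicle. Of the 5 genes 4 were called lower with TGFb with each siRNA, and Msln was called higher with scrambled siRNA. Among all tested genes 10.1% were called lower with Bmal1 siRNA, and 29.1% lower and 16.4% higher with scrambled siRNA. The sums of the TGFb groups overlapped each other, which the ligand levels did not. Of the single markers Gpm6a did not overlap either, at 14.93 to 33.64 FPKM with Bmal1 siRNA and TGFb and 9.05 to 12.68 FPKM with scrambled siRNA and TGFb. The other mesothelial markers overlapped between the TGFb groups. Of 5 cholangiocyte markers, all with rows, the sum was 100.39 to 186.5 FPKM with Bmal1 siRNA and TGFb and 76.58 to 89.28 FPKM with vehicle; with scrambled siRNA it was 206.71 to 222.14 FPKM under TGFb and 74.39 to 86.01 FPKM under vehicle. For the 4 of 8 hepatocyte markers with rows these ranges were 11.86 to 16.19 and 7.7 to 10.18 FPKM with Bmal1 siRNA, and 31.23 to 38.16 and 8.14 to 9.25 FPKM with scrambled siRNA. Single genes carried both sums, Spp1 among the cholangiocyte markers and Ass1 among the hepatocyte markers, both called higher with TGFb with each siRNA. Other markers of these lists divided: with scrambled siRNA Krt7, Krt19 and Apoa2 were called lower and Sox9 was called higher (0.80, limma adjusted p = 2.25e-05). Epcam was at most 0.28 and Cps1 at most 0.01 FPKM in the 12 libraries. The part of these cells in the ligand changes was not tested.

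The bases just before the start of Bmp4 and Gdf10 are shown because these are the ligand genes whose upstream window in the RefSeq promoter table (GRCm38.p6) held no annotated exon. The table matched 5 of the 6 genes, all but Bmp2. Capitals mark matches on either strand to any of 5 motifs. CACGTG is the E-box bound by the Bmal1 and Clock pair. GTCTAGAC and CAGAC are bound by Smad3 and Smad4, and GGCGCC and GGAGCC by the BMP Smads; no motif contains another.
Bmp4 (chr14:46390670-46390919, minus strand, 250 bases before the start): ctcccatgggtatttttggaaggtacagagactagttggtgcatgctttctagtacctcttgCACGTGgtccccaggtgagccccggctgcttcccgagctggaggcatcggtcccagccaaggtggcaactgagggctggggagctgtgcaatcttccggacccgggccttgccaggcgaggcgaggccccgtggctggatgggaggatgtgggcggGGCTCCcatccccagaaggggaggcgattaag
Gdf10 (chr14:33923337-33923586, plus strand, 250 bases before the start): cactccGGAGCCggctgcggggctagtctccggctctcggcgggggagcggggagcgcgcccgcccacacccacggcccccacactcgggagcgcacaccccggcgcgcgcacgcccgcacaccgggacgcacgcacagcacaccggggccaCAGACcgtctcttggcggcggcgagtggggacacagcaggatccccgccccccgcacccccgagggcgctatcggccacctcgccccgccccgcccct
The Bmp4 window held 1 CACGTG, beginning 188 bases before the start, and 1 GGAGCC, 32 bases before it, read on the opposite strand. The Gdf10 window held 1 GGAGCC, 244 bases before the start, and 1 CAGAC, 98 bases before it. No CACGTG lay in the windows of Gdf10, Bmpr1a, Bmpr2 or Acvr1, and no GTCTAGAC lay in any of the 5. GGCGCC had 1 match each in the windows of Bmpr1a and Bmpr2, and GGAGCC had 2 in that of Acvr1. These receptor windows lie partly or wholly in annotated exons, 250 of 250 bases for Bmpr2 and Acvr1 and 141 for Bmpr1a. Among 27025 mouse promoter windows of the same length, 6.05% held CACGTG, 0.174% GTCTAGAC, 42.1% CAGAC, 9.54% GGCGCC and 25.7% GGAGCC. These matches describe letters and no binding was measured.

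Gdf10 has the ligand gene Gdf2 as its next protein-coding gene on the chromosome, and only protein-coding neighbours were looked up. Gdf2 encodes BMP9, a circulating ligand made in the liver that signals through the endothelial receptor Acvrl1. It lies at chromosome 14, 33941039 to 33947198 on the same strand, with 3055 bases between the genes. With Bmal1 siRNA it measured 0.52, 1.91 and 0.83 FPKM under TGFb, against 3.42, 2.94 and 2.74 FPKM under vehicle. In control-transfected cells it measured 0.25, 0.24 and 0.24 FPKM under TGFb, against 3.03, 3.40 and 3.21 FPKM under vehicle. As for Gdf10, both TGFb groups lay below both vehicle groups, and replicate 2 was the highest of the Bmal1 siRNA TGFb libraries. TGFb changed Gdf2 by a log2 of -1.0 after Bmal1 siRNA (limma adjusted p = 0.00147) and -1.76 after scrambled siRNA (adjusted p = 2.99e-06). Of the next genes along the chromosome, Rbp3 was at most 0.04 FPKM, too low to compare, and Zfp488 lay between 1.68 and 2.41 FPKM in the 12 libraries. The predicted gene Gm30083, which follows, measured 0.33, 0.79 and 0.40 FPKM under TGFb with Bmal1 siRNA, against 0.75, 0.50 and 0.45 FPKM under vehicle. With scrambled siRNA Gm30083 measured 0.09, 0.33 and 0.14 FPKM under TGFb, against 0.84, 0.68 and 0.61 FPKM under vehicle. Its scrambled groups did not overlap, and its Bmal1 siRNA groups did. Farther along, A630023A22Rik lay between 0.7 and 1.56 FPKM, with its scrambled TGFb libraries below its scrambled vehicle libraries. Anxa8 went the other way, at 159.83, 121.21 and 153.54 FPKM with Bmal1 siRNA and TGFb, against 70.05, 60.93 and 62.34 FPKM under vehicle. Its scrambled libraries held 228.92, 251.75 and 242.63 FPKM under TGFb, against 80.38, 70.51 and 69.27 FPKM under vehicle.

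Bmpr1a (chromosome 14, 34410734 to 34503341, minus strand, sharing 290 exon bases with the antisense gene Gm17110), the type I receptor ALK3, had the highest level of the 3 receptors in each library. After Bmal1 siRNA it measured 33.3, 33.8 and 32.0 FPKM under TGFb, against 35.5, 37.6 and 35.9 FPKM under vehicle. Libraries with scrambled siRNA had 29.7, 29.1 and 29.9 FPKM under TGFb, against 29.6, 35.6 and 34.1 FPKM under vehicle. The scrambled groups overlapped, because vehicle replicate 1 lay among the TGFb libraries. With Bmal1 siRNA the log2 change was -0.13 and was not called (limma adjusted p = 0.135; 0.0343 without scrambled vehicle replicate 1). The log2 change with TGFb and scrambled siRNA was -0.15 (SE 0.059, limma adjusted p = 0.0491). That call ended in 17 of 25 alternative fits, including those without any 1 of the scrambled TGFb libraries (0.0843 to 0.118) and without scrambled vehicle replicate 2 or 3. Without scrambled vehicle replicate 1 the change was -0.23 (adjusted p = 0.00166).

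Bmpr2 (chromosome 1, 59763400 to 59879014, plus strand), the type II receptor mutated in heritable pulmonary arterial hypertension in humans, was higher with TGFb in scrambled cells. Bmal1 siRNA libraries held 11.7, 9.04 and 9.25 FPKM under TGFb, against 10.0, 9.75 and 9.04 FPKM under vehicle. After scrambled siRNA the levels were 14.4, 10.8 and 12.7 FPKM under TGFb, against 6.67, 8.98 and 8.65 FPKM under vehicle. The scrambled groups did not overlap, and the Bmal1 siRNA groups did. The log2 change was 0.04 with Bmal1 siRNA (limma adjusted p = 0.83; 95% interval -0.21 to 0.30) and 0.59 with scrambled siRNA (SE 0.119, adjusted p = 0.00134).

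Acvr1 (chromosome 2, 58388644 to 58567157, minus strand), the type I receptor ALK2 whose activating mutations cause fibrodysplasia ossificans progressiva in humans, was also higher with TGFb in scrambled cells. With Bmal1 siRNA it measured 14.8, 13.0 and 13.2 FPKM under TGFb, against 11.9, 12.2 and 11.9 FPKM under vehicle. In scrambled cells the levels were 20.2, 18.7 and 21.5 FPKM under TGFb, against 12.9, 12.8 and 12.4 FPKM under vehicle. TGFb libraries lay above vehicle libraries with each siRNA, and those with scrambled siRNA lay highest. With Bmal1 siRNA the log2 change of 0.17 was not called (limma adjusted p = 0.0687), and without Bmal1 siRNA TGFb replicate 2 it was 0.20 (adjusted p = 0.0357). With scrambled siRNA the change was 0.62 (SE 0.061, adjusted p = 3.11e-06).

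In cells given Bmal1 siRNA, TGFb thus lowered Bmp2 and Gdf10 and changed none of the other 4 genes past the threshold, 2 of 6 called. In that comparison 19.0% of all tested genes were called, 8.90% higher and 10.1% lower. Without Bmal1 siRNA TGFb replicate 2 the count was 4, with Bmp4 and Acvr1 added. The median log2 change over the 6 genes was -0.25 with Bmal1 siRNA and -0.90 with scrambled siRNA, against 0.0035 and -0.049 over all tested genes.

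The next question was what the Bmal1 siRNA did at each treatment. Under vehicle limma called none of the 6 genes, and 1 of them had an unadjusted p under 0.05, Bmpr1a (log2 change 0.13, adjusted p = 0.209). In that comparison 0.660% of all tested genes were called, and 2433 of all 11208 had an unadjusted p under 0.05. The ligand changes and their 95% intervals were -0.05 (-0.18 to 0.09) for Bmp2, 0.14 (-0.23 to 0.51) for Bmp4 and -0.32 (-0.71 to 0.08) for Gdf10. For the receptors they were 0.13 (0.01 to 0.26) for Bmpr1a, 0.23 (-0.03 to 0.49) for Bmpr2 and -0.07 (-0.21 to 0.06) for Acvr1. These intervals are not adjusted for the number of genes, and the Bmpr1a change was 0.059 without scrambled vehicle replicate 1 (adjusted p = 0.636).

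Under TGFb the ligands were higher with Bmal1 siRNA than with scrambled siRNA, 2.63-fold for Bmp2, 2.69-fold for Bmp4 and 13-fold for Gdf10 as ratios of mean FPKM. The Gdf10 ratio rests on a scrambled TGFb mean of 0.12 FPKM, where values rest on few fragments. Its log2 change ran from 0.35 to 2.78 over the alternative fits. Acvr1 was lower, at 67.8% of the scrambled level. Of the 6 genes 4 were called, 3 higher and 1 lower, where 16.0% of all tested genes were called higher and 7.16% lower, 23.2% in all. That split too depended on scaling, with 69.1% of calls higher on the deposited scale and 44.9% after median-of-ratios scaling. The log2 changes were 1.23 for Bmp2 (limma adjusted p = 2.56e-07), 1.35 for Bmp4 (0.000136), 1.13 for Gdf10 (0.000887) and -0.53 for Acvr1 (7e-05). Without Bmal1 siRNA TGFb replicate 2 the change was 1.14 for Bmp4 (adjusted p = 0.000121) and 0.87 for Gdf10 (adjusted p = 0.000382). The change of each of the 4 called genes was called whichever library was left out. Bmpr2 (-0.31, adjusted p = 0.0759) and Bmpr1a (0.15, adjusted p = 0.0768) were not called. Bmpr2 was lower and called in 6 of 25 alternative fits. It was called without Bmal1 siRNA TGFb replicate 1 (0.0209), scrambled TGFb replicate 2 (0.0363) or scrambled vehicle replicate 1 (0.0459). With all libraries kept it was called with array weights (0.00961), quantile normalization (-0.357, 0.0433) or median-of-ratios scaling (-0.375, 0.0432). Bmpr1a was called without scrambled vehicle replicate 1 (0.0164) and with array weights (0.0448). With 3 libraries against 3 the exact two-sided permutation p of each called ligand or receptor was 0.1, the smallest this design allows. The scrambled TGFb libraries enter this comparison and the first one, so a low or high value there moves both. Among the mesothelial markers, 1 of 5 was called under TGFb, Gpm6a, higher with Bmal1 siRNA (1.0, adjusted p = 0.00523).

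**Figure D2:**
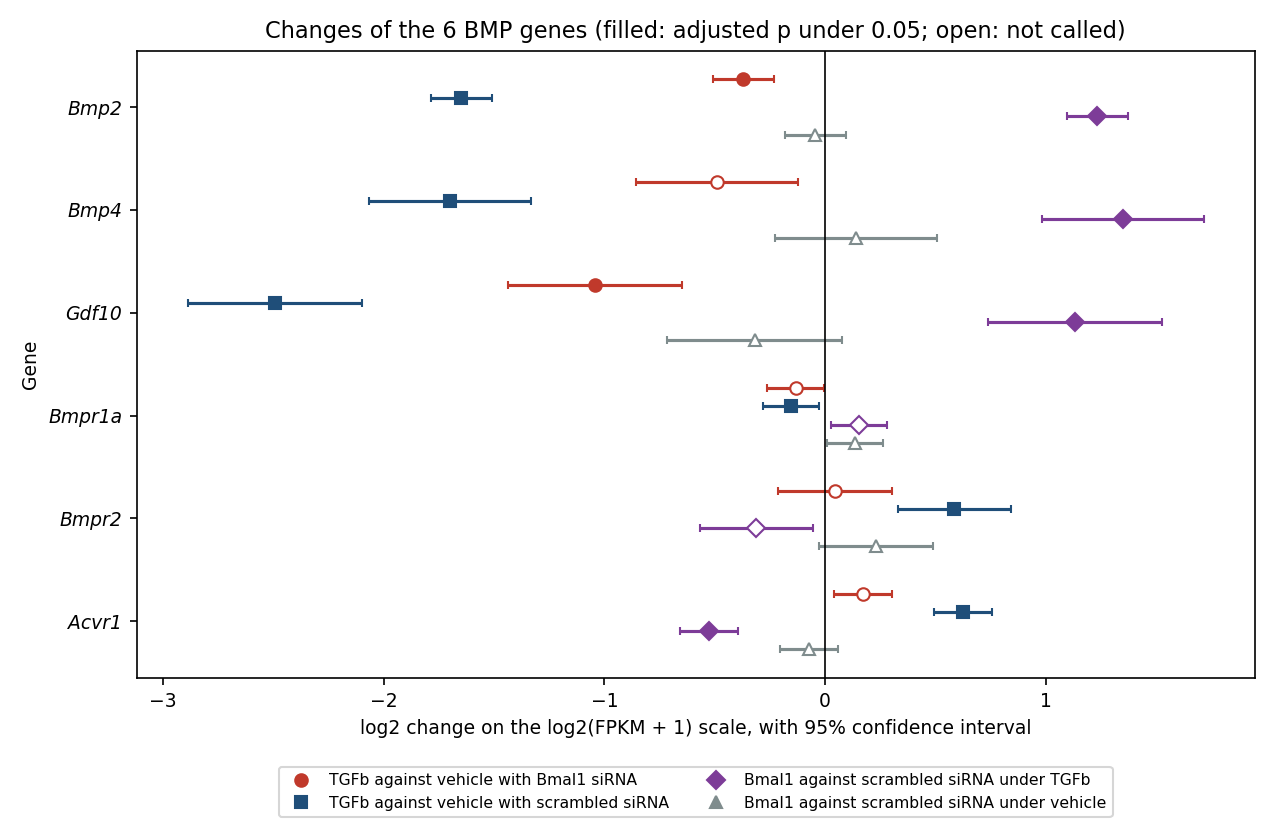
log2 change of each BMP gene on the log2(FPKM + 1) scale (horizontal axis) with its 95% confidence interval, for 4 comparisons; filled symbols passed an adjusted p under 0.05 by limma. The ligands show TGFb changes with Bmal1 siRNA of -0.37 to -1.04 and with scrambled siRNA of -1.65 to -2.49, and positive changes with Bmal1 siRNA under TGFb.

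Whether the TGFb response itself differed between the siRNAs was tested as an interaction, the log2 change with TGFb after Bmal1 siRNA minus that after scrambled siRNA. It was positive for the ligands, 1.28 for Bmp2 (SE 0.090, limma adjusted p = 7.74e-06), 1.21 for Bmp4 (SE 0.24, 0.00592) and 1.45 for Gdf10 (SE 0.259, 0.00313). It was negative for Acvr1 at -0.45 (SE 0.086, adjusted p = 0.00463) and for Bmpr2 at -0.54 (SE 0.169, adjusted p = 0.0482). Bmpr1a had 0.02 (adjusted p = 0.907). The count was 5 of 6 called, 3 higher and 2 lower, where 14.4% of all tested genes were called, 8.86% higher and 5.52% lower. The split of those calls was 61.6% higher on the deposited scale and 42.1% after median-of-ratios scaling. Without Bmal1 siRNA TGFb replicate 2 the interaction was 1.0 for Bmp4 and 1.19 for Gdf10, both called. For Bmpr2 it was then -0.48 and not called (adjusted p = 0.0833). The Bmpr2 interaction lost its call in 14 of 24 alternative fits, 9 of them with 1 library left out (-0.42 to -0.59). For Bmp2, Bmp4, Gdf10 and Acvr1 the call was kept in all 24, though the size for Gdf10 ran from 0.54 to 3.17.

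Seen library by library, the share of its own vehicle mean that each ligand retained under TGFb was 70.2%, 83.6% and 74.7% for Bmp2 in Bmal1 siRNA replicates 1 to 3, against 29.5%, 26.4% and 28.2% in scrambled replicates. For Bmp4 the shares were 53.3%, 95.2% and 69.5% with Bmal1 siRNA, against 22.5%, 35.8% and 31.0% with scrambled siRNA. For Gdf10 they were 17.7%, 62.8% and 34.9%, against 1.69%, 3.39% and 1.69%. Each Bmal1 siRNA library retained more than each scrambled library for all 3 ligands, and Bmal1 siRNA replicate 2 retained the most. The share of all tested genes that separate in this way was not counted, so these values are a description only. The interaction was called for 14.4% of all tested genes. Set against cells with scrambled siRNA and vehicle, cells with Bmal1 siRNA and TGFb had lower Bmp2 (-0.42, limma adjusted p = 0.000526) and Gdf10 (-1.36, adjusted p = 0.000222), 2 of 6 called where 22.6% of all tested genes were. Bmp4 had -0.35 (adjusted p = 0.163), -0.56 without Bmal1 siRNA TGFb replicate 2 (adjusted p = 0.00932) and -0.15 without replicate 1 of that group (adjusted p = 0.538). Acvr1 had 0.10 (adjusted p = 0.282), Bmpr2 0.27 (0.118) and Bmpr1a 0.00066 (0.995).

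The other genes of the pathway were taken as 5 lists with 78 entries, of which 71 had rows and 45 passed the filter. Bmp3, Bmp5, Bmp7, Bmp10, Mstn, Sostdc1 and Msx2 were not analysed here. With TGFb 9 rose and 11 fell after Bmal1 siRNA, where 19.0% of all tested genes were called, and 16 rose and 16 fell after scrambled siRNA, where 45.5% were. Bmal1 siRNA under TGFb raised 8 and lowered 7, where 23.2% of all tested genes were called. Under vehicle limma called none of the 45, with 8 at an unadjusted p under 0.05, against 2433 of all 11208 tested genes at such a p. The interaction was called for 10, of which 4 were positive, where 14.4% of all tested genes were called. 

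Of the 20 other ligands 5 were tested. Apart from Gdf2, Inhba was called: it encodes the subunit of activin A, a ligand that uses Smad2 and Smad3, and it moved opposite to the 3 BMP ligands. It measured 5.13 ± 1.35 FPKM with Bmal1 siRNA and TGFb and 2.48 ± 0.239 FPKM with that siRNA and vehicle (SD, n = 3 each). Scrambled siRNA libraries measured 9.84 ± 0.605 FPKM under TGFb and 2.48 ± 0.139 FPKM under vehicle. On the log2 scale TGFb raised it by 0.80 after Bmal1 siRNA and by 1.64 after scrambled siRNA, and the interaction was -0.84 (limma adjusted p = 0.0079). Gdf2 had a higher level with Bmal1 siRNA under TGFb (0.69, adjusted p = 0.0114; not called in the fit of only the groups compared, 0.0666), and its interaction of 0.76 was not called (adjusted p = 0.0531). Bmp6, Gdf6 and Gdf11 were not called in any of these comparisons.

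Among 12 other receptors and co-receptors 6 were tested. With Bmal1 siRNA TGFb raised 1 and lowered 1, where 8.90% of all tested genes were called higher and 10.1% lower. With scrambled siRNA TGFb raised 1 and lowered 3, where 16.4% of all tested genes were called higher and 29.1% lower. Eng, the co-receptor endoglin, rose with TGFb by a log2 of 0.27 with Bmal1 siRNA and of 0.45 with scrambled siRNA, and was lower with Bmal1 siRNA under TGFb (-0.29, adjusted p = 0.0014). Acvr1b, a type I activin receptor, fell by 0.44 with Bmal1 siRNA and by 0.37 with scrambled siRNA; the first call ended without Bmal1 siRNA TGFb replicate 3 (adjusted p = 0.057). The co-receptor genes Rgma and Rgmb fell by 0.42 and 0.22 with scrambled siRNA, and the call of Rgmb ended without scrambled TGFb replicate 1 or 2 or scrambled vehicle replicate 1 or 3. The type II receptor genes Acvr2a and Acvr2b were not called in any of these comparisons. Bmpr1b, the close relative of Bmpr1a, was at most 0.03 FPKM in all 12 libraries, and Acvrl1 lay between 0.06 and 0.44 FPKM.

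Of the 19 secreted antagonists and modulators 10 were tested. With Bmal1 siRNA 5 rose and none fell, where 8.90% of all tested genes were called higher and 10.1% lower. With scrambled siRNA 6 rose and 1 fell, where 16.4% of all tested genes were called higher and 29.1% lower, a split that depended on scaling. Grem1, which binds and blocks Bmp2 and Bmp4, measured 51.4 ± 13.7 FPKM with Bmal1 siRNA and TGFb and 24.5 ± 3.34 FPKM with that siRNA and vehicle. With scrambled siRNA Grem1 measured 53.2 ± 6.89 FPKM under TGFb and 27.5 ± 0.841 FPKM under vehicle (SD, n = 3 each). The log2 change was 1.01 with Bmal1 siRNA and 0.92 with scrambled siRNA, with an interaction of 0.09 (adjusted p = 0.811). Fstl1 and Fstl3, follistatin-like secreted proteins, rose by 0.55 and 0.38 with Bmal1 siRNA and by 1.62 and 1.71 with scrambled siRNA. Their interactions were called, at -1.07 for Fstl1 and -1.33 for Fstl3, which shares 1157 exon bases with Prss57. Bmp1, a protease that cleaves the antagonist chordin and is no BMP ligand, rose by 0.39 with Bmal1 siRNA and by 0.76 with scrambled siRNA. Bmper rose by 0.53 with Bmal1 siRNA and by 0.35 with scrambled siRNA, and Crim1, a membrane protein that binds BMPs, fell by 0.36 with scrambled siRNA. Noggin (Nog) stayed between 0.08 and 0.40 FPKM and was not tested.

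Of the 16 Smads and intracellular regulators all were tested; TGFb raised 2 and lowered 4 with Bmal1 siRNA (19.0% of all tested genes called) and raised 7 and lowered 6 with scrambled siRNA (45.5% called). The BMP Smad genes divided: Smad5 rose by 0.35 and Smad1 by 0.19 with scrambled siRNA, and Smad9 fell by 0.53 with Bmal1 siRNA and by 0.58 with scrambled siRNA. Smad6, which inhibits BMP receptors, fell by 0.57 with Bmal1 siRNA and by 0.31 with scrambled siRNA. Smad7, which inhibits both branches, measured 4.24 ± 0.237 FPKM with Bmal1 siRNA and TGFb and 4.94 ± 0.690 FPKM with that siRNA and vehicle. With scrambled siRNA Smad7 measured 9.25 ± 0.448 FPKM under TGFb and 4.76 ± 0.15 FPKM under vehicle (SD, n = 3 each). Its change was -0.18 and not called with Bmal1 siRNA (adjusted p = 0.149) and 0.83 with scrambled siRNA, with an interaction of -1.01. Smurf1, a ubiquitin ligase that targets BMP Smads, rose by 0.19 with Bmal1 siRNA and by 0.61 with scrambled siRNA, with an interaction of -0.42.

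**Figure D3:**
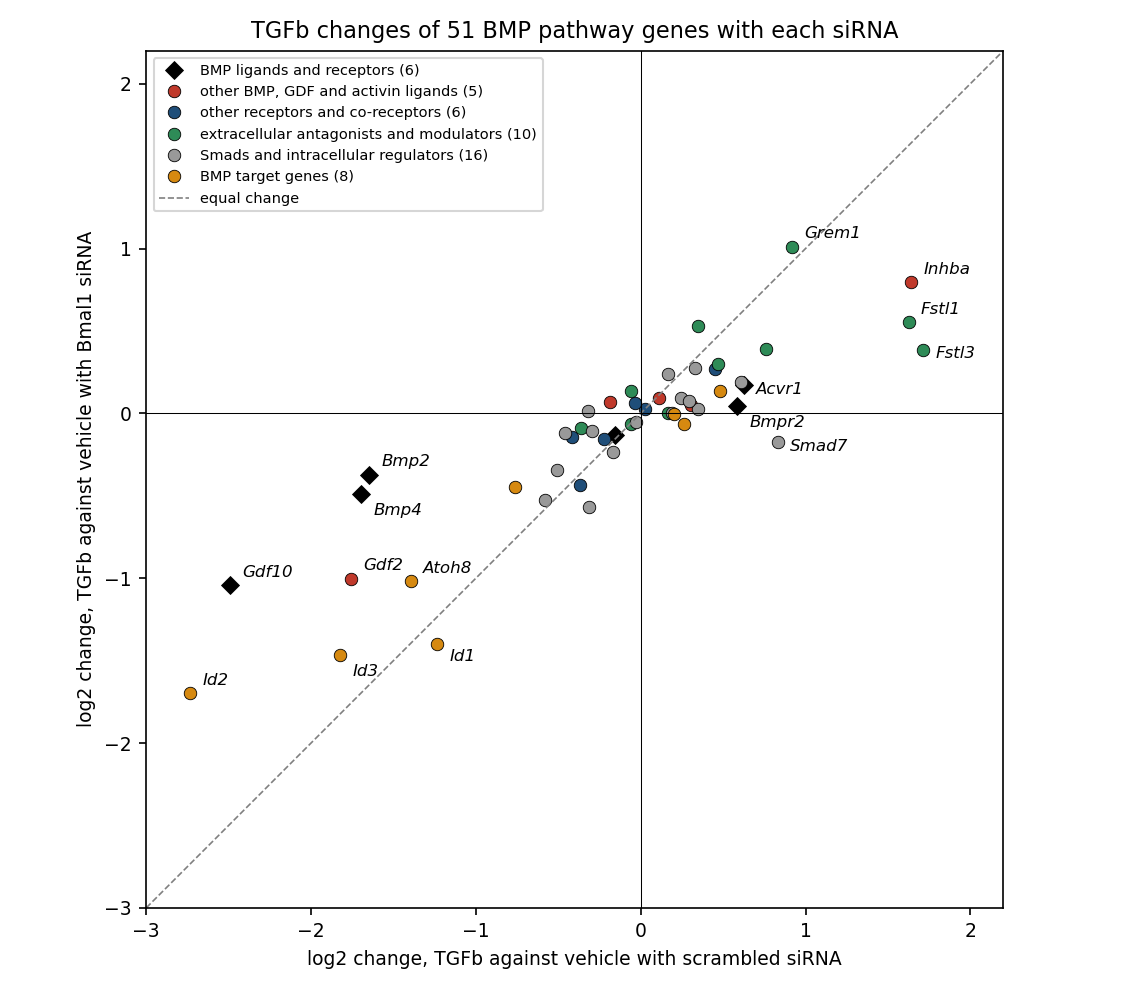
log2 change with TGFb against vehicle after scrambled siRNA (horizontal axis) and after Bmal1 siRNA (vertical axis) for 51 BMP pathway genes, each a point coloured by list, with the dashed line at equal change. Bmp2, Bmp4 and Gdf10 lie well above the line, whereas Id1 (-1.40 with Bmal1 siRNA, -1.23 with scrambled siRNA) lies just below it.

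Of the 11 BMP target genes 8 were tested. TGFb lowered 5 of them with each siRNA and raised 1, Dlx3, with scrambled siRNA. Of all tested genes 10.1% were called lower with Bmal1 siRNA, and 29.1% lower and 16.4% higher with scrambled siRNA. Id1, Id2 and Id3 encode inhibitors of helix-loop-helix transcription factors and are standard readouts of BMP Smads, and Atoh8 is another such target. Id2 changed by -1.70 with Bmal1 siRNA and by -2.74 with scrambled siRNA, Id3 by -1.47 and -1.83, Atoh8 by -1.02 and -1.40, and Id1 by -1.40 and -1.23. Id2 was the only tested target with a called interaction (1.04, adjusted p = 0.0106), and under TGFb it was higher with Bmal1 siRNA (1.15, adjusted p = 0.000348). Under TGFb Id3 had 0.50 (adjusted p = 0.0754), Atoh8 0.27 (0.104) and Id1 0.03 (0.915), none called.

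The targets were also read as shares of the vehicle mean with the same siRNA. Id1 retained 28.1%, 53.1% and 33.7% in the Bmal1 siRNA TGFb libraries, against 40.9%, 43.3% and 40.6% in the scrambled TGFb libraries. Id2 retained 21.8%, 38.0% and 22.5%, against 13.0%, 6.43% and 9.9%. The Id1 shares overlapped between the siRNAs, and those of Id2 did not. Id3 retained 25.2%, 55.7% and 31.5% with Bmal1 siRNA, against 26.6%, 28.9% and 26.5% with scrambled siRNA, which overlapped. Among the ligands the lowest Bmal1 siRNA library retained 70.2% for Bmp2 and 53.3% for Bmp4, but 17.7% for Gdf10 and 17.1% for Gdf2, below the lowest for these 3 targets. Bmal1 siRNA TGFb replicate 2 was the highest of its group for each of these genes.

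**Figure D4:**
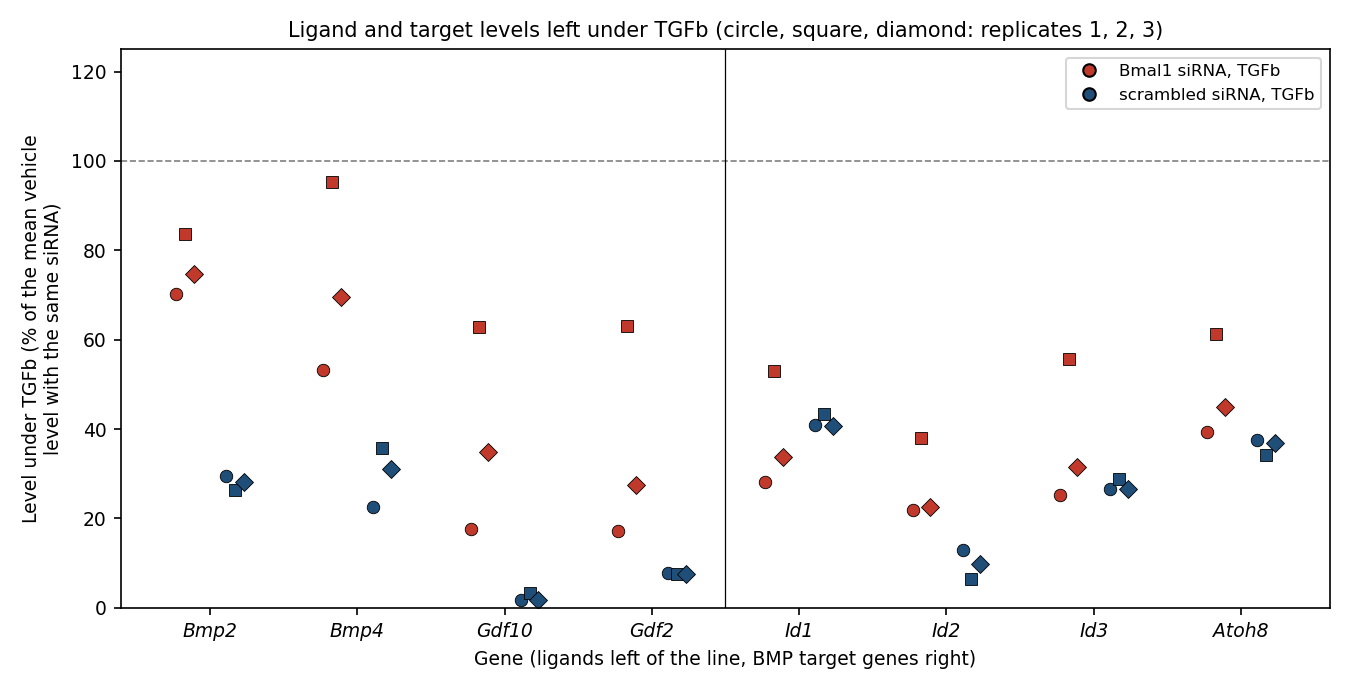
Level of 4 ligand genes (left of the vertical line) and 4 BMP target genes (right) in each TGFb library, as a percent of the mean vehicle level with the same siRNA; circles, squares and diamonds are replicates 1, 2 and 3. The Bmal1 siRNA libraries lie above the scrambled ones for all 4 ligands and for Id2 and Atoh8, and the groups overlap for Id1 and Id3. The share of all tested genes that separate in this way was not counted.

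The members' levels were also set against each other and against other genes, as descriptions over 12 libraries of 4 groups, in which any gene that follows the groups correlates. Pearson's r of log2(FPKM + 1) was 0.961 between Bmp2 and Bmp4, 0.943 between Bmp2 and Gdf10 and 0.93 between Bmp4 and Gdf10. Acvr1 ran opposite to the ligands, with -0.971 to Bmp2, -0.975 to Bmp4 and -0.912 to Gdf10. Among 8573 genes with a highest group mean of at least 5 FPKM, those most like Bmp2 were Frmd4b (0.9928), Plat (0.992) and Cxcl1 (0.991). Those most like Bmp4 were Btbd2 (0.9906), Hadh (0.9899) and C1qtnf6 (0.9863), and those most like Gdf10 were Abhd8 (0.9964), Atp6v0e2 (0.9961) and Tmem108 (0.9937). Acvr1 was most like Foxc2 (0.9843), Snai1 (0.9841) and Whrn (0.9821). Snai1, an EMT transcription factor, averaged 46.8 FPKM with Bmal1 siRNA and TGFb and 32.4 FPKM with that siRNA and vehicle, and 124 FPKM with scrambled siRNA and TGFb and 36.7 FPKM with vehicle. Bmpr2 was most like Uhrf1bp1 (0.991), Zbtb38 (0.976) and the integrin gene Itgav (0.9671). Bmpr1a, which varied least between the groups, was most like Dock11 (0.9778), D5Ertd579e (0.9751) and Man1a2 (0.9694).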

How the data were processed

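Total RNA of 12 libraries was sequenced, and the authors deposited 1 table of FPKM values with 2 decimals, per the file headers. Per the labels' protocols either of 2 RNA kits was used, without saying for which sample, so a difference between kits cannot be checked. The submitters' processing notes name RSEM, DESeq2, HISAT2 2.0.4, Bowtie2 2.2.5 and the build mm10, with no roles; strand use, annotation and read numbers were not given there. Of 16290 lines, 555 without an identifier (1.304% to 1.464% of a library's total) and 15 repeats were left out. GENCODE M21 gave symbols for 15694 of the 15720 identifiers left. Reads of genes that overlap may be mixed, since strand use is unknown: of 78 genes looked up, 21 shared exon bases with another gene, 9 with a protein-coding one.

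FPKM is scaled by the authors to each library, so abundant genes that change shift the rest, and no whole reads were recovered. limma 3.58.1 (R 4.3.3) was fitted to log2(FPKM + 1) of the 11208 genes whose mean reached 0.5 FPKM. The model had 4 group means over 12 libraries and an intensity trend, with 8 residual and 4.99 prior degrees of freedom, and tests were two-sided. Adjusted p-values are Benjamini-Hochberg over all of these, called under 0.05. This scale understates changes of low genes. The scripts were tested on simulated data. Named genes were the 6 members, Arntl, up to 4 called genes per list and comparison by size and the 3 most correlated per member; a few others were chosen after their values were seen. Members and lists were chosen with earlier results of these data known. Alternatives were 2 pseudocounts, 2 filters, 3 scalings, a replicate block, fewer groups, no trend, robust fitting, array weights and left-out libraries.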

Additional observations from a re-analysis of the deposited data

Results flagged for a closer look

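These genes had a response to TGFb that differed between the siRNAs by the interaction test in limma (log2 change with TGFb after Bmal1 siRNA minus that after scrambled siRNA). The members were Bmp2 at 1.28, Bmp4 at 1.21, Gdf10 at 1.45, Bmpr2 at -0.54 and Acvr1 at -0.45. Among the other ligands and the antagonists they were Inhba at -0.84, Fstl1 at -1.07, Fstl3 at -1.33, Bmp1 at -0.37 and Crim1 at 0.27. Inside the cell they were Smad7 at -1.01, Smurf1 at -0.42, Ctdsp1 at 0.34 and Tab1 at 0.33, and among the targets Id2 at 1.04. The call of Bmpr2 was lost in 14 of 24 alternative fits. That of Crim1 was lost with libraries scaled to equal totals (0.21, adjusted p = 0.1) and without both second TGFb libraries (0.24, adjusted p = 0.0523). The groups of 3 libraries were too small to test for single libraries that stand apart.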

How the results depend on the processing

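Replicate numbers were not used to pair the libraries in the main fit. After group means were removed, 8 of 18 same-numbered pairs correlated above 0.1 (-0.161 to 0.475). Among groups other than scrambled vehicle these values ran from -0.051 to 0.475, and with scrambled vehicle from -0.161 to 0.171. Pairs with unlike numbers ran from -0.407 to 0.241. Whether some libraries share a replicate effect was not tested. With the replicate block 4 pathway genes and 540 of all genes were called for Bmal1 siRNA under vehicle, against 0 and 74 without it, the interaction of Bmpr2 had an adjusted p of 0.0528, and Bmp4 with TGFb after Bmal1 siRNA was called (0.0223), making 3 members. The block changed no other member's call. Members called with TGFb after Bmal1 siRNA, 2 in the main analysis, were 5 with array weights, 4 without both second TGFb libraries and 2 to 4 with 1 library left out. For Bmal1 siRNA with TGFb against scrambled siRNA with vehicle they were 4 rather than 2 without both second TGFb libraries. Pathway genes called for the siRNA under vehicle were 1 with equal totals, 1 after quantile normalization, 5 with array weights, 2 without both second TGFb libraries, 1 with only the groups compared and 0 to 2 with a library left out. Arntl under vehicle had -0.21 with a pseudocount of 5 (adjusted p = 0.0516), -0.37 without a filter (0.0812), -0.34 with equal totals (0.0682) and -0.40 to -0.34 with a library left out (up to 0.21). Over all genes, the 2128 calls with TGFb after Bmal1 siRNA became 4613 with array weights, 3246 without both second TGFb libraries and 1171 to 3265 with a library left out. The 74 calls under vehicle became 7 without a filter, 1376 with array weights, 414 without both second TGFb libraries, 229 with only the groups compared and 2 to 472 with a library left out. The 2596 calls under TGFb became 1489 without both second TGFb libraries and 1542 with only the groups compared. The 1612 interactions became 3012 with array weights and 991 at the lowest with a library left out. The 2532 calls of the diagonal comparison, Bmal1 siRNA with TGFb against scrambled siRNA with vehicle, became 4195, 1585 with only the groups compared, and 1660 at the lowest.

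Directions turned for Bmpr1a and Bmpr2 alone among the members, all for changes that were not called. Bmpr2 with TGFb after Bmal1 siRNA was -0.064 without Bmal1 siRNA TGFb replicate 1 (up to 0.11 without others). The interaction of Bmpr1a was -0.040 with median-of-ratios scaling, -0.044 with equal totals, -0.029 after quantile normalization, -0.0078 without both second TGFb libraries and -0.033 to 0.095 with a library left out. Its diagonal comparison was -0.0055 with median-of-ratios scaling, -0.077 with array weights, -0.015 without both second TGFb libraries and -0.075 to 0.053 with a library left out. Of 894 alternative values for the members 825 kept direction and call; the causes were not tested. Depth is unknown, which limits genes near or below 1 FPKM.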

Other observations

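Some pathway genes under the filter on low values, chosen after their values were seen and not tested, differed without overlap between the groups named. The share of all genes under the filter that separate in this way was not counted, so the values are a description only. Bambi, a pseudoreceptor that inhibits BMP and TGFb signalling, measured 0.35, 0.31 and 0.30 FPKM with Bmal1 siRNA and TGFb, against 0.63, 0.56 and 0.62 FPKM with that siRNA and vehicle. With scrambled siRNA Bambi measured 0.25, 0.39 and 0.35 FPKM under TGFb, against 0.60, 0.56 and 0.56 FPKM under vehicle. Tll1, a relative of the protease gene Bmp1, measured 0.17, 0.05 and 0.06 FPKM with Bmal1 siRNA and TGFb, against 0.37, 0.37 and 0.28 FPKM with scrambled siRNA and TGFb. Gdf15, a stress-induced ligand, measured 0.15, 0.11 and 0.07 FPKM with Bmal1 siRNA and TGFb, against 0.33, 0.40 and 0.37 FPKM with scrambled siRNA and TGFb. Under vehicle Gdf15 measured 0.11, 0.07 and 0.04 FPKM with Bmal1 siRNA and 0.11, 0.19 and 0 FPKM with scrambled siRNA. Such levels rest on few fragments.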
